A study of Mus musculus with 6 samples.

Results

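Replication-dependent histone genes encode the core histones H2A, H2B, H3 and H4 and the linker histone H1, which package newly made DNA. The genes described here were the rows of the table whose symbol carries a histone cluster name (Hist1h to Hist4h) and which held 12 or more reads over the 6 libraries. Of 55 such rows, 32 genes met this minimum, out of 18001 genes in the table. They comprised 4 H1, 15 H2A, 4 H2B, 5 H3 and 4 H4 genes, of which 28 lay on chromosome 13 and 4 on chromosome 3 of mm10 (GRCm38). The other 23 rows, with H2B, H3 and H4 names, had fewer than 12 reads and are described only by their sum.

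These genes are transcribed in S phase, when NPAT, phosphorylated by cyclin E and CDK2, activates the histone clusters. Unlike other mRNAs, their transcripts have no introns as a rule and end in a short stem-loop in place of a poly(A) tail. The stem-loop binding protein SLBP and the U7 snRNP direct the cleavage that forms this end, and the same loop serves in the rapid decay of histone mRNA when DNA synthesis stops. Poly(A) selection removes most histone mRNA, so a library of this kind reads only a small part of it.

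NIH/3T3 cells, an immortalized fibroblast line derived from mouse embryos, received a pool of siRNAs directed at Aldoa (siAldoa), which encodes the glycolytic enzyme aldolase A, or a non-targeting pool (siCtrl). Poly(A) RNA was sequenced after 48 h from 3 replicates per group. All cells were of the same line, and siCtrl cells had been transfected as well. The siRNA sequences and any effect of the pool on other genes were not analysed here.

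Each library held between 3692341 and 3771129 reads, so 1 read was worth 0.262 to 0.274 CPM (reads relative to the scaled library size). Aldoa fell from 534 ± 11.97 CPM to 68.0 ± 4.68 CPM (SD, n = 3), 12.7% of the control, with a log2 fold change of -2.96 in limma (standard error, SE, 0.052). Of 10 fibroblast markers 9 were in the table, with sums of 14837 to 15374 CPM in siCtrl and 12386 to 13093 CPM in siAldoa. The members went both ways, with 4 called lower (Col1a1, Col1a2, Vim and Sparc) and 3 higher (Pdgfrb, Fn1 and Thy1). The 4 epithelial markers in the table summed to 18.6 to 19.7 CPM in siCtrl and 7.86 to 14.2 CPM in siAldoa, and the 4 endothelial markers to 7.94 to 8.995 and 4.01 to 7.83 CPM. Immune (7.22 to 10.7 CPM) and muscle markers (3.14 to 5.88 CPM) overlapped between the groups. Of the epithelial markers, limma called Cdh1 (101 reads over the 6 libraries) and Krt8 (19 reads) lower. No endothelial, immune or muscle marker was called. Epcam, Kdr, Cd3e, Myod1 and Myog were among the listed markers with no row in the table used here, while Cdh1, Pecam1, Ptprc and Des had rows. The part of these markers in the histone values was not tested. Replicate 3 stood apart from replicates 1 and 2 in both groups. The chi-square per degree of freedom between the reads of a library pair was 1.11 and 1.09 for replicates 1 and 2 of siCtrl and siAldoa, and 1.86 to 2.79 for pairs with replicate 3.

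The stem-loop of histone mRNA is shown first because it sets these transcripts apart from others in a poly(A) library. It was searched on the transcript strand as 16 bases: a 6-base arm GGNNNT, a 4-base loop NNTN and a 6-base arm ANNNCC, in which the arms pair. In the GENCODE M21 transcripts, 21 of the 32 genes held it. The stem is given in capitals and the loop in lower case. The form found in 13 genes of the H1, H2A, H2B and H3 classes, among them Hist1h2ag (chr13:22042483-22042498, minus strand) and Hist1h1c (chr13:23739512-23739527, plus strand), was
H1, H2A, H2B and H3 form: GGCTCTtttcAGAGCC
H4 form of Hist1h4d and Hist1h4n: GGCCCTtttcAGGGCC
H4 form of Hist1h4i and Hist2h4: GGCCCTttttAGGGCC
H3 form of Hist1h3c and Hist1h3f: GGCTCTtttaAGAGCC
Hist1h3g: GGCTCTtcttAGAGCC
Hist2h2ac: GGCTCTttttAGAGCC

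The H4 genes differed from the others in 1 base pair of the stem, and Hist1h3c, Hist1h3f, Hist1h3g and Hist2h2ac differed in the loop. Among the other protein-coding genes of the table, 0.700% (95 of 13567) held a match to the same pattern somewhere in a transcript. Of the 11 histone genes with no match, 4 have no annotated base after the stop codon and 2 (Hist1h2aj and Hist1h2al) are annotated as pseudogenes. Hist1h2bc, Hist1h2bq and Hist2h2be have 742, 1608 and 2192 annotated bases after the stop codon and no match. The poly(A) signal AATAAA stood in the last 50 bases of a transcript in 6 of the 32 genes, against 76.9% of the other protein-coding genes.

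The H2A genes of the Hist1 cluster are close copies, and the reads of near-identical copies cannot be assigned to a gene with certainty. Transcripts 95% identical or more over at least 80% of the shorter put 13 H2A genes into a single group (Hist1h2ab, ac, ad, ae, af, ag, ah, ai, aj, ak, an, ao and ap), and a limit of 98% gave the same 13. Further groups were Hist1h2bc with Hist1h2be and Hist1h2bq, Hist1h2al with Hist2h2ac, and Hist1h4i with Hist1h4n, so that 20 of the 32 genes had a near-identical partner. The first 60 coding bases of the 4 most abundant H2A genes show how little separates them. Bases that differ from Hist1h2ag are in capitals.
Hist1h2ag (chr13:22042868-22042927, minus strand): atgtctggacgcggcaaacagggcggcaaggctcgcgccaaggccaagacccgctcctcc
Hist1h2ao (chr13:21810467-21810526, plus strand): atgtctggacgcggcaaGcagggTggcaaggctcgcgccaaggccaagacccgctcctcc
Hist1h2ap (chr13:21833416-21833475, minus strand): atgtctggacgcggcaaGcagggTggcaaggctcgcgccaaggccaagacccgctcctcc
Hist1h2ak (chr13:21753768-21753827, minus strand): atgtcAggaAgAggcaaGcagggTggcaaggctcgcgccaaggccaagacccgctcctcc

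Over the whole coding sequence of 393 bases, Hist1h2ad differed from Hist1h2ag at 2 positions, Hist1h2ao and Hist1h2ap at 3 each and Hist1h2ak at 13. All 15 H2A genes also overlap a gene model on the opposite strand that has no row of its own in the table. Whether strand was used in counting is not given in the sources used here.

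All 55 rows together took 321, 384 and 325 reads in siCtrl replicates 1, 2 and 3, and 269, 258 and 246 reads in siAldoa replicates 1, 2 and 3. This was 0.0065 to 0.0104% of a library. The 32 genes held a median of 30.5 reads over the 6 libraries, 6 of them had over 100 reads, and 18 had under 3 reads (0.786 to 0.822 CPM) in at least 1 library. At this depth the standard errors of the log2 fold changes lay between 0.19 and 0.34, and a modest change of a single gene was not detectable. The summed level of the 32 genes was 79.4, 94.1 and 77.0 CPM in siCtrl and 65.0, 63.6 and 59.7 CPM in siAldoa. Every siAldoa library was below every siCtrl library, and the mean fell from 83.5 ± 9.26 to 62.8 ± 2.76 CPM (SD, n = 3), 75.2% of the control. The 23 rows under the minimum gave a sum of 9.48 ± 1.29 CPM in siCtrl and 5.87 ± 1.49 CPM in siAldoa (SD, n = 3), with groups that did not overlap either. In bulk samples, fewer cells in S phase and less histone RNA per cell cannot be told apart.

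**Figure D1:**
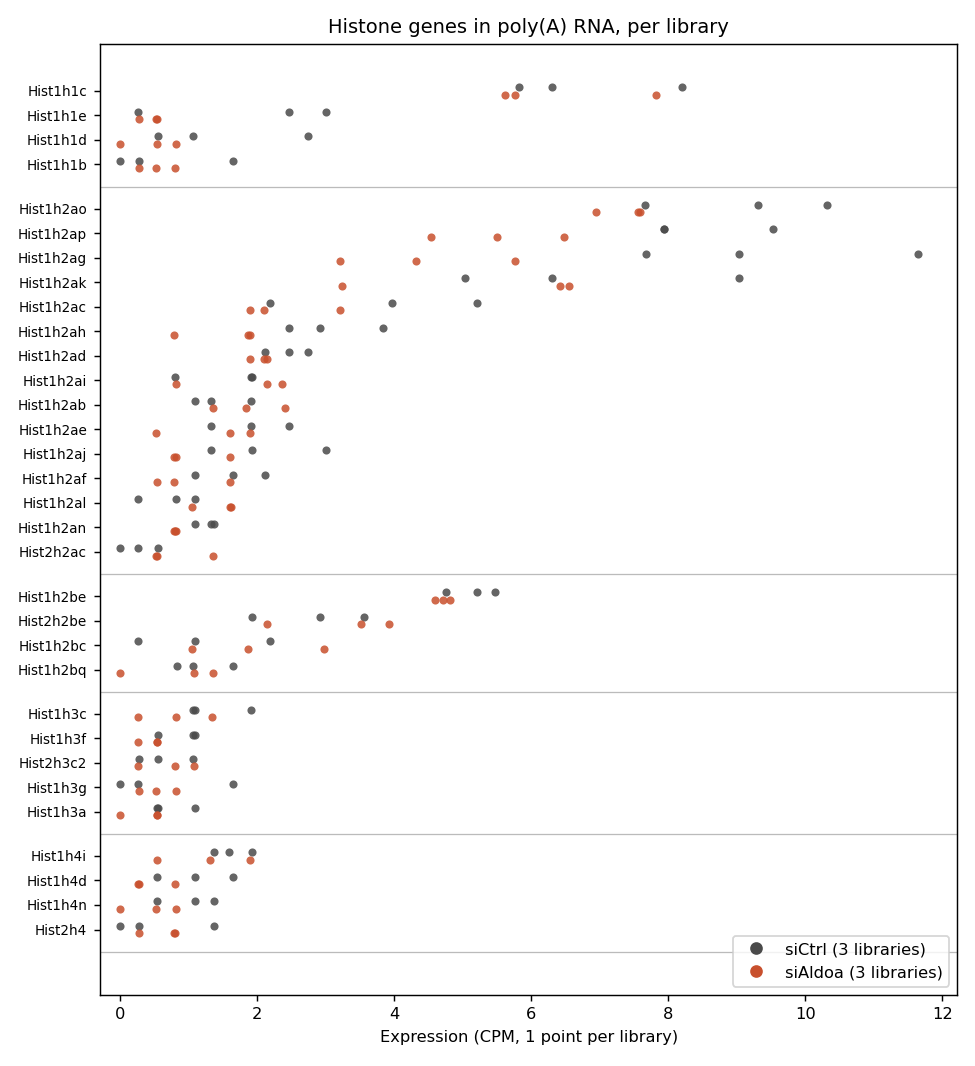
Expression of the 32 histone genes in CPM on the x axis, with 1 point per library and the genes in rows, grouped by histone class. The siAldoa points of Hist1h2ag (3.21 to 5.76 CPM) lie below its siCtrl points (7.67 to 11.6 CPM), while the points of most other genes overlap.

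Single genes were compared with limma on log2(CPM + 1), and p-values were adjusted over all 18001 genes (Benjamini-Hochberg). Fold changes are given on this log2 scale, where those of sparsely read genes come out too small. At an adjusted p under 0.05, 1 of the 32 genes, Hist1h2ag, was lower in siAldoa, where 10.0% of all genes were called lower and 20.4% in either direction. Of the 5650 genes with as many reads as these (12 to 184), 2.00% were called lower and 4.11% higher. None of the 32 was called higher by limma, edgeR or DESeq2, against 10.4% of all genes by limma. DESeq2 called 1 of the 32 lower (6.21% of all genes) and edgeR 2 (10.4%). An unadjusted p under 0.05 in limma was reached by 5 of the 32, among them the near-identical copies Hist1h2ag, Hist1h2ah and Hist1h2ap. Over all genes that share is at least the 20.4% with an adjusted p under 0.05. Among genes with 12 to 184 reads it was not computed. The fold change was below 0 in 22 genes and above 0 in 10, with a median of -0.31, beside a median of -0.0023 over all genes, 50.4% of which were below 0 (48.6% of those with 12 to 184 reads). Near-identical copies share reads and are not independent in this count. With these copies summed, 10 of 16 histone features were below 0 and 6 above, with a median of -0.21. The siAldoa libraries lay wholly below siCtrl in 6 genes (Hist1h2ag, Hist1h2ah, Hist1h2an, Hist1h2ao, Hist1h2ap and Hist1h3f) and above it in none, where 17.1% of all genes were wholly lower and 16.7% wholly higher. In whole reads, 2 of the 6 did not separate: Hist1h3f held 2 reads in siCtrl replicate 1 and in siAldoa replicates 1 and 2, and Hist1h2ao held 28 reads in siCtrl replicate 2 and 29 in siAldoa replicate 3. The 6 genes form a share close to that of all genes, and the corresponding shares among genes with 12 to 184 reads were 8.53% lower and 9.91% higher.

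Expressed per length, as the mean CPM of the 6 libraries per kilobase of annotated exon, Hist1h2ao (17.1), Hist1h2ak (15.5), Hist1h2ap (14.5) and Hist1h2ag (14.3) were the most abundant, all core H2A genes of the Hist1 cluster. Hist1h2ah followed at 5.66, and Hist1h1d, whose annotated transcript runs on for 4884 bases after the loop, was lowest at 0.128. The order among near-identical copies depends on how their shared reads were assigned.

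The H2A genes, which encode the partner of H2B in the nucleosome, held 63.4% of the reads of the 32 genes. Hist1h2ag (ENSMUSG00000069301, chr13:22042460-22042944, minus strand) was at 7.67, 9.03 and 11.6 CPM in siCtrl and at 4.32, 3.21 and 5.76 CPM in siAldoa. All siAldoa libraries were below all siCtrl libraries. The mean fell from 9.45 ± 2.02 to 4.43 ± 1.28 CPM (SD, n = 3), with a log2 fold change of -0.95 (SE 0.23, adjusted p = 0.0040 in limma). Over 17 alternative settings the adjusted p lay between 0.00095 and 0.14. The call was lost without the mean-variance trend (0.053), when replicate 1, 2 or 3 was left out of both groups (0.082, 0.14 and 0.085), and without siCtrl replicate 3 (0.053), the library in which the gene was highest.

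Hist1h2ao was at 9.31, 7.66 and 10.3 CPM in siCtrl and at 7.56, 6.95 and 7.59 CPM in siAldoa. On the CPM scale, though not in reads, the lowest control lay just above the highest siAldoa library, and the log2 fold change was -0.26 (SE 0.19, adjusted p = 0.39 in limma). Hist1h2ap was at 7.94, 7.93 and 9.52 CPM in siCtrl and at 6.48, 4.54 and 5.50 CPM in siAldoa. Its groups did not overlap either, and its log2 fold change was -0.55 (SE 0.21, adjusted p = 0.070 in limma). With genes in the lowest quartile of mean CPM left out of the limma fit, its adjusted p was 0.041, where 14.4% of 13500 genes were called lower.

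The other 12 H2A genes did not pass the test. Their log2 fold changes ran from -0.71 for Hist1h2ah (3.07 ± 0.70 CPM in siCtrl and 1.52 ± 0.63 CPM in siAldoa, SD, n = 3) to 0.51 for the pseudogene Hist1h2al. Hist1h2ak, the least like Hist1h2ag in coding sequence among the abundant copies, was at 6.78 ± 2.04 CPM in siCtrl and 5.40 ± 1.87 CPM in siAldoa (SD, n = 3), and its groups overlapped.

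Because reads of close copies may be exchanged between them, the 13 near-identical H2A genes were also summed into a single feature. Their sum was 51.2, 53.9 and 53.7 CPM in siCtrl and 33.5, 38.5 and 37.4 CPM in siAldoa. The 3 controls lay close together and all 3 siAldoa libraries were below them. The mean fell from 52.9 ± 1.49 to 36.5 ± 2.65 CPM (SD, n = 3), 68.9% of the control, on 998 reads in all. In a limma fit of the whole table with near-identical histone genes summed, this feature had a log2 fold change of -0.53 (SE 0.086, 95% interval -0.71 to -0.35). It was the only one of the 16 histone features called at an adjusted p under 0.05, where 10.1% of all 17985 features were called lower. Without Hist1h2ag the sum of the other 12 copies was 43.5 ± 1.399 CPM in siCtrl and 32.04 ± 3.08 CPM in siAldoa (SD, n = 3), 73.7% of the control. Of the 13 copies, 11 had a log2 fold change below 0. The call was lost when replicate 3 was left out of both groups, with a log2 fold change of -0.54.

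The second H2A pair went the other way. Hist2h2ac, a core H2A gene of the Hist2 cluster on chromosome 3, and Hist1h2al together gave 1.00 ± 0.43 CPM in siCtrl and 2.23 ± 0.70 CPM in siAldoa (SD, n = 3), a log2 fold change of 0.69 that did not pass the adjustment (SE 0.28, adjusted p = 0.082 in limma). This rests on 36 reads in all.

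**Figure D2:**
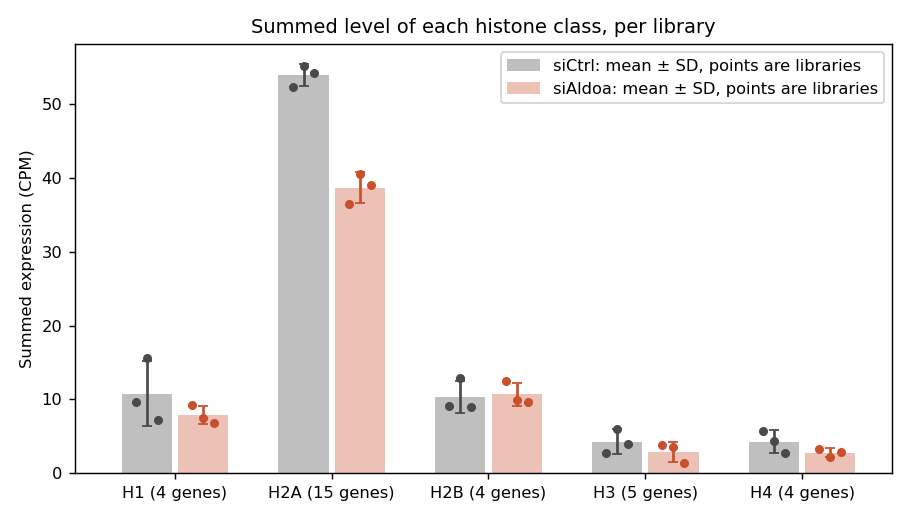
Summed CPM of the genes of each histone class on the y axis, with 1 point per library and bars at the group means, for H1, H2A, H2B, H3 and H4. The H2A sums separate the groups (52.3 to 55.3 CPM in siCtrl, 36.4 to 40.6 CPM in siAldoa), and the sums of the other 4 classes overlap. The siAldoa mean was 71.7% of the control for H2A, on 1034 reads. It was 72.6% for H1 (207 reads), 104% for H2B (234), 67.3% for H3 (79) and 64.6% for H4 (78).

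The H2B genes encode the partner of H2A. The summed level of the 4 H2B genes was 9.04, 12.9 and 8.995 CPM in siCtrl and 12.4, 9.89 and 9.69 CPM in siAldoa, so the groups overlapped and the siAldoa mean was 104% of the control. Hist1h2be was at 5.20, 5.47 and 4.76 CPM in siCtrl and at 4.59, 4.81 and 4.71 CPM in siAldoa. Its log2 fold change was -0.11 (SE 0.22, adjusted p = 0.81 in limma). Hist2h2be was at 1.92, 3.56 and 2.91 CPM in siCtrl and at 3.51, 2.14 and 3.93 CPM in siAldoa, which overlapped widely. Hist1h2bc was at 1.10, 2.19 and 0.265 CPM in siCtrl and at 2.97, 1.87 and 1.05 CPM in siAldoa, also overlapping. The near-identical H2B genes Hist1h2bc, Hist1h2be and Hist1h2bq summed to 7.503 ± 1.64 and 7.47 ± 1.59 CPM (SD, n = 3), with a 95% interval of the log2 fold change from -0.45 to 0.44. The 10 H2B rows under 12 reads, in contrast, summed to 4.23 ± 1.07 CPM in siCtrl and 1.78 ± 0.43 CPM in siAldoa (SD, n = 3), and the groups did not overlap. The difference between the changes of the H2A and H2B classes was not tested.

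The H1 genes encode the linker histones that bind DNA between nucleosomes. Hist1h1c, the most abundant of them, was at 6.30, 8.21 and 5.82 CPM in siCtrl and at 7.83, 5.61 and 5.76 CPM in siAldoa. The groups overlapped, and the log2 fold change was -0.072 (SE 0.22, adjusted p = 0.87 in limma). Hist1h1e was at 2.46, 3.01 and 0.265 CPM in siCtrl and at 0.270, 0.535 and 0.524 CPM in siAldoa. Controls 1 and 2 were high, while siCtrl replicate 3 held 1 read, and the log2 fold change of -0.85 (SE 0.34) did not pass the test (limma adjusted p = 0.079). edgeR called Hist1h1e lower on the recovered reads (log2 fold change -2.01, adjusted p = 0.036), and limma called it lower without siCtrl replicate 3 (-1.37) or without replicate 3 of both groups (-1.42). Its annotation overlaps that of Hist1h2be on the same strand. Hist1h1d was at 0.548, 2.74 and 1.06 CPM in siCtrl and at 0.810, 0.535 and 0 CPM in siAldoa (log2 fold change -0.70, SE 0.32, adjusted p = 0.13 in limma). The H1 sum was 72.6% of the control with overlapping groups, and siCtrl replicate 2 was the high library in it (15.6 CPM against 9.59 and 7.14). Without siCtrl replicate 2 the log2 ratio of the H1 sums was -0.097 in place of -0.46. siCtrl replicate 2 was also the highest library for 15 of the 32 genes, more than any other library, among them the H2A copies Hist1h2ak, Hist1h2ah, Hist1h2aj and Hist1h2an.

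The H3 and H4 genes, which form the central tetramer of the nucleosome, were near the detection limit. Hist1h3c was at 1.10, 1.91 and 1.06 CPM in siCtrl and at 0.810, 1.34 and 0.262 CPM in siAldoa. Hist1h3f was at 0.548, 1.09 and 1.06 CPM in siCtrl and at 0.540, 0.535 and 0.262 CPM in siAldoa, 1 to 4 reads per library. Hist2h3c2 was at 0.548, 0.274 and 1.06 CPM in siCtrl and at 1.08, 0.802 and 0.262 CPM in siAldoa, with both means under 3 reads. None of these passed the test, and only for Hist1h3f did the groups not overlap in CPM, where the lowest siCtrl and the highest siAldoa library held 2 reads each. The H3 sum was 67.3% of the control, with overlapping groups. Its log2 ratio of -0.57 was -0.23 without siCtrl replicate 2, -0.23 without siAldoa replicate 3, -0.27 without replicate 3 of both groups and -1.06 without replicate 1 of both groups.

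Hist1h4i was at 1.92, 1.37 and 1.59 CPM in siCtrl and at 1.89, 0.535 and 1.31 CPM in siAldoa. Hist1h4d was at 1.10, 1.64 and 0.529 CPM in siCtrl and at 0.270, 0.802 and 0.262 CPM in siAldoa. Hist1h4n was at 1.37, 1.09 and 0.529 CPM in siCtrl and at 0.810, 0 and 0.524 CPM in siAldoa. In all 3 the groups overlapped and limma called none (log2 fold changes -0.27, -0.52 and -0.49, with standard errors of 0.28). The H4 sum was 64.6% of the control, again with overlap. Its log2 ratio of -0.63 was -0.35 without siCtrl replicate 1 and -0.91 to -0.46 with other libraries left out. Outside the near-identical H2A group, the other 19 genes summed to 30.6 ± 8.71 CPM in siCtrl and 26.3 ± 4.77 CPM in siAldoa (SD, n = 3), 86.1% of the control with overlapping groups, and 11 of them had a log2 fold change below 0.

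**Figure D3:**
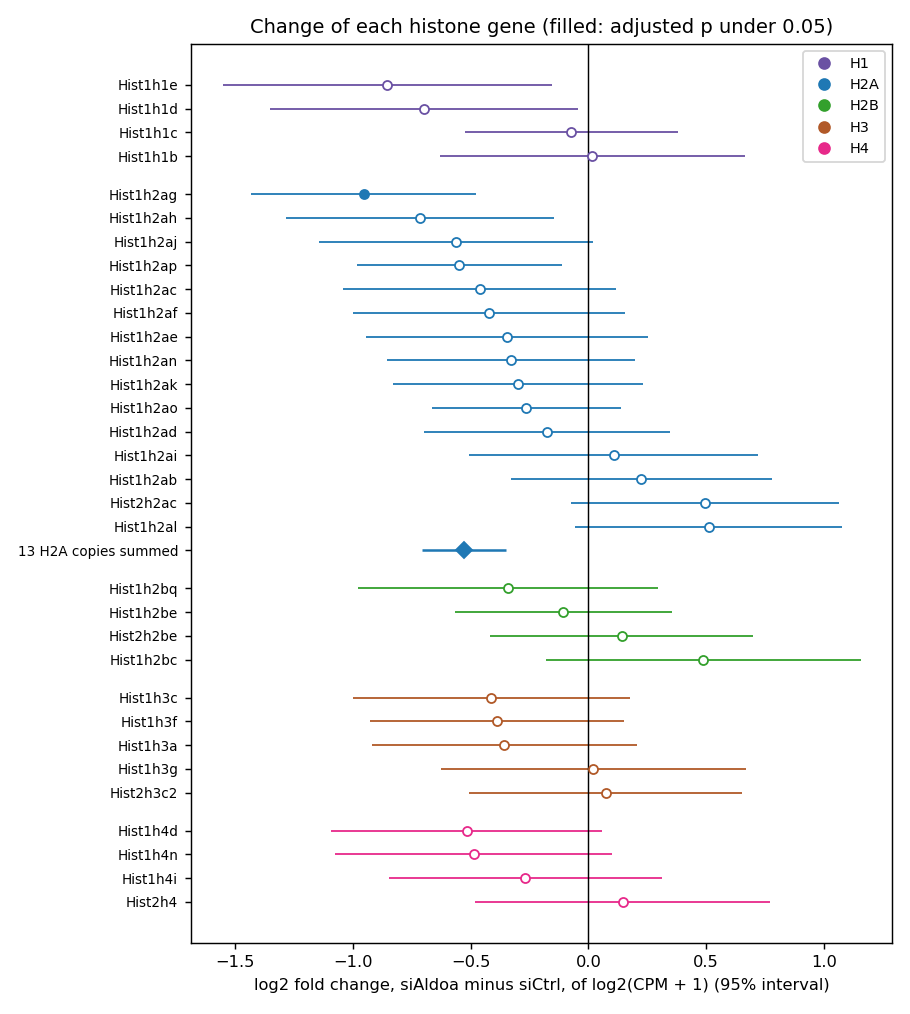
Log2 fold change of log2(CPM + 1), siAldoa minus siCtrl, on the x axis for each histone gene in rows, with the 95% interval from limma. The interval of Hist1h2ag lies wholly below 0 and is the only one past the adjusted threshold. The intervals of most genes span 0.

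The genes were divided by how much annotated transcript follows the stem-loop, since a transcript that continues past the loop can carry a poly(A) tail. The 10 genes with at most 100 bases after the loop, Hist1h2ag, Hist1h2ao and Hist1h2ap among them, summed to 34.9 ± 2.92 CPM in siCtrl and 24.1 ± 2.04 CPM in siAldoa (SD, n = 3), 69.2% of the control. The 11 genes with over 100 bases after it, which include Hist1h1c, Hist1h2be and Hist1h4i, summed to 25.8 ± 3.76 and 19.2 ± 2.46 CPM (SD, n = 3), 74.5% of the control. Neither sum had overlapping groups, although in the second the lowest siCtrl value (21.4 CPM) lay next to the highest siAldoa value (21.3 CPM). The 11 genes with no annotated loop summed to 22.9 ± 6.80 and 19.4 ± 2.18 CPM (SD, n = 3), 84.98% of the control, with overlap. The division follows histone class in part. The 4 genes with a short end that are not H2A were at 3.71 ± 1.79 and 2.14 ± 0.83 CPM (SD, n = 3), with overlapping groups. Whether the 3 kinds of end differed in their change was not tested.

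**Figure D4:**
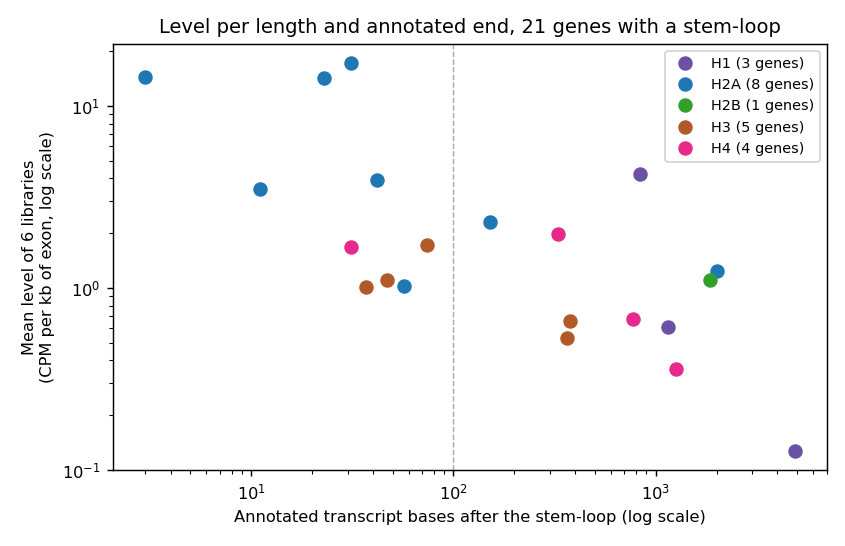
Mean level over the 6 libraries, as CPM per kilobase of annotated exon, against the number of annotated transcript bases after the stem-loop. Both axes are on log scales, and the 21 genes with a loop are shown. The bases after the loop count in the exon length, so a longer annotated end lowers the value per kilobase. The dashed line at 100 bases divides the 10 genes with a short end from the 11 whose annotation runs on. Hist1h2ag, Hist1h2ao and Hist1h2ap are among the 10.

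Promoter sequences from RefSeq (GRCm38.p6, 250 bases before to 50 after the start) were matched for 24 of the 32 genes. The letters CCAAT, the core of the box bound by NF-Y, occurred on either strand in 22 of them (91.7%), against 41.1% of 27025 genes. TATAAA occurred on either strand in 14 (58.3%), against 15.7%. Near-identical copies share these letters, so the genes are not independent in this count.

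Other genes of the histone pathway were read far more deeply. For the counts in the lists that follow, limma called 10.0% of all genes lower and 10.4% higher. These shares depend on depth, and no share at the depth of each list was computed. The replacement variants are made outside S phase as well, from polyadenylated mRNA. H2afx, a gene of this list, also holds a match to the stem-loop pattern in a transcript. Of 11 in the table, 5 were lower in siAldoa and none higher (limma, where 5 had an unadjusted p under 0.05), with a median log2 fold change of -0.18. H1f0, the replacement linker histone, was at 324, 308 and 316 CPM in siCtrl and at 210, 225 and 231 CPM in siAldoa (log2 fold change -0.51). H2afz, which encodes H2A.Z, fell by 0.47 on the log2 scale, Cenpa, the centromeric H3, by 0.43 and H3f3b, a gene for H3.3, by 0.33. In these 4 genes every siAldoa library was below every control. H3f3a, the other H3.3 gene, was at 16.9 ± 1.59 CPM and 15.2 ± 2.15 CPM (SD, n = 3) and did not pass the test.

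Of 11 genes for histone gene transcription, 3 were lower and 1 higher, with a median log2 fold change of -0.17. Ccne1, which encodes cyclin E1, was at 46.6, 42.1 and 47.4 CPM in siCtrl and at 31.8, 34.7 and 31.9 CPM in siAldoa (log2 fold change -0.45, SE 0.091, adjusted p = 0.00075 in limma). Nfyb and Nfya, subunits of the CCAAT-binding factor NF-Y, had log2 fold changes of -0.30 and 0.26. E2f1, an activator of S phase genes, had -0.23. The calls of Nfyb, E2f1 and Nfya held in 6, 5 and 10 of 17 alternatives. Npat was at 62.2, 65.4 and 60.9 CPM in siCtrl and at 62.1, 53.5 and 57.1 CPM in siAldoa, overlapping groups that limma did not separate (log2 fold change -0.13, SE 0.076).

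Of 11 genes for the formation of the histone 3′ end, 2 were lower and none higher (limma, where 2 had an unadjusted p under 0.05), with a median of -0.096. Slbp, the stem-loop binding protein, was at 63.3, 54.7 and 61.4 CPM in siCtrl and at 47.2, 42.5 and 48.2 CPM in siAldoa. All siAldoa libraries were lower, with a log2 fold change of -0.37 (SE 0.083, adjusted p = 0.0020 in limma), and the call held in 14 of 17 alternatives. Cpsf2, which encodes the partner of the histone cleavage enzyme, had a log2 fold change of -0.28 and was called in 13 of 17 alternatives. The U7 snRNP proteins Lsm10 (18.04 ± 1.80 and 16.9 ± 3.29 CPM, SD, n = 3) and Lsm11 (38.2 ± 6.79 and 35.98 ± 3.35 CPM, SD, n = 3) did not pass the test.

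Of 8 genes for histone mRNA decay, 2 were lower (Lsm1 -0.41 and Dcp2 -0.22, for the decapping step) and 1 higher (Xrn1, the 5′ to 3′ exonuclease, 0.31), with a median of 0.0095. Dcp2 and Xrn1 were called in 8 and 6 of 17 alternatives. Of 14 genes listed for canonical polyadenylation, which adds the tail by which these RNAs were selected, none was lower and Pcf11 was higher (log2 fold change 0.26, called in 10 of 17 alternatives), with a median of -0.019. Some subunits that serve both kinds of end, Cpsf2 among them, were counted only in the list for the histone 3′ end, where Cpsf2 was lower.

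Of 23 histone chaperones and related factors, 9 were lower and 1 higher, with a median of -0.13. Anp32e, which removes H2A.Z, was at 265, 253 and 273 CPM in siCtrl and at 136, 152 and 139 CPM in siAldoa (log2 fold change -0.89, SE 0.052). Nasp, a carrier of H3 and H4, fell by 0.68 on the log2 scale, Asf1b, which hands H3 and H4 to the assembly factors, by 0.55, and Set, a chaperone that also inhibits histone acetylation, by 0.50. Ubn1, a subunit of the HIRA complex that deposits H3.3, was higher (log2 fold change 0.32). Supt16 (-0.41), a subunit of FACT, which handles H2A and H2B dimers, was among the 9 and is named after its value was seen. Ssrp1, also a member of FACT, was not called and its groups overlapped (log2 fold change -0.078, adjusted p = 0.20 in limma).

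**Figure D5:**
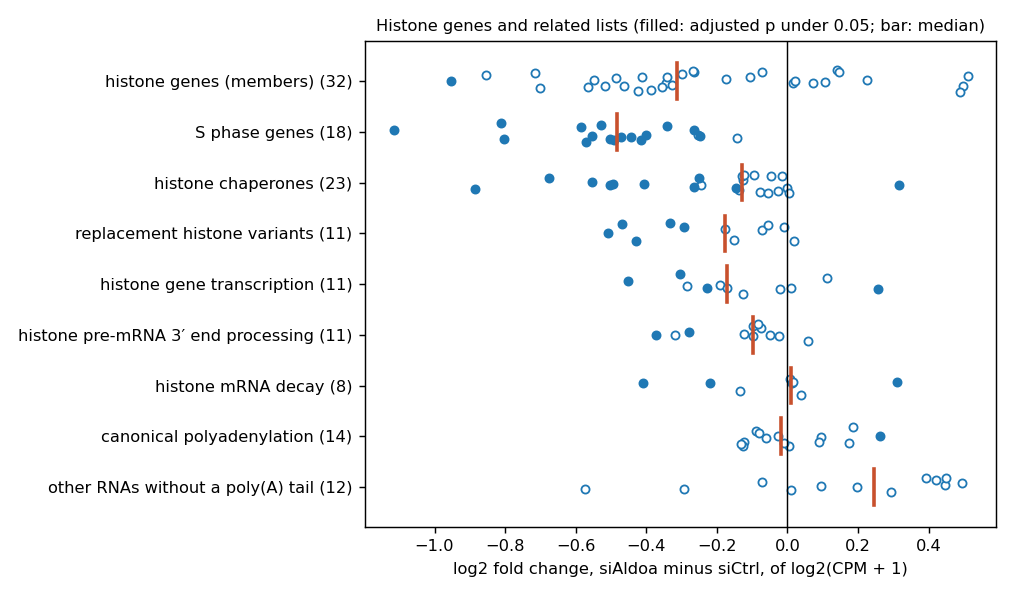
Log2 fold change of each gene, siAldoa minus siCtrl on the log2(CPM + 1) scale, on the x axis, for the histone genes and each of the other gene lists in rows, with the number of genes in parentheses. The S phase genes lie below 0 throughout (-1.12 to -0.14). The genes listed for canonical polyadenylation, without Cpsf2, lie between -0.13 and 0.26.

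The S phase genes were lower in siAldoa. Of 18 genes, limma called 16 lower and none higher (17 had an unadjusted p under 0.05), where 10.0% of all genes were called lower. Their median log2 fold change was -0.48. Uhrf1, the maintenance factor of DNA methylation, had -1.12, Cdc6, the loader of the replicative helicase, -0.81, Rrm2, the ribonucleotide reductase subunit, -0.80, and the helicase subunit Mcm5 -0.59. Pcna, the sliding clamp of the polymerase, was at 175, 183 and 185 CPM in siCtrl and at 150, 148 and 158 CPM in siAldoa, a log2 fold change of -0.25. Summed, the list was at 2441 ± 11.7 CPM in siCtrl and 1734 ± 40.6 CPM in siAldoa (SD, n = 3), 71.1% of the control. The part of S phase and of Slbp in the histone values was not tested.

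A further 12 RNAs in the table have no poly(A) tail, such as the RNA subunits of RNase MRP and RNase P, which poly(A) selection also removes. None was called (limma), 1 had an unadjusted p under 0.05, and the median log2 fold change was 0.25. Their sum was 23.0, 28.7 and 14.8 CPM in siCtrl and 31.8, 27.5 and 19.4 CPM in siAldoa, 118% of the control with overlapping groups. Replicate 3 was lowest in both groups, as in Rmrp (8.49, 8.75 and 0.794 CPM in siCtrl, 7.83, 5.35 and 2.62 CPM in siAldoa). The summed H2A copies did not follow this, with 53.7 CPM in siCtrl replicate 3 and 37.4 CPM in siAldoa replicate 3, values inside or next to those of replicates 1 and 2. The 19 genes outside that group did, with 28.2, 40.2 and 23.3 CPM in siCtrl and 31.6, 25.1 and 22.3 CPM in siAldoa. Replicate 3 was also lowest in both groups for the H1 and H2B sums, narrowly for H2B in siCtrl (8.995 against 9.04 CPM). The H3 and H4 sums did not follow it in both groups. The part of RNA without a poly(A) tail in the histone values was not tested.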

How the data were processed

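RNA-sequencing of NIH/3T3 cells transfected with siAldoa or siCtrl for 48 h was analysed, with 3 libraries per group that the authors describe as biological replicates. Groups and replicate numbers came from the sample labels. The authors isolated poly(A) RNA, aligned reads to mm10 with Bowtie2 (version 2.2.7), reduced every sample to the same number of reads by subsampling, and deposited CPM per gene. Handling of multi-mapping reads, the annotation release and the use of strand are not given in the sources used here. Spike-in RNA was added at lysis for replicate 1 and after extraction for the others, and the table held 0 spike-in rows. A deposited comparison of log2 fold changes, log2 mean CPM and p-values from the authors was not used.

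Counts of reads were recovered by dividing each deposited CPM by the value of 1 read, and 100% came out whole (tolerance 0.01 reads). Intervals cover the spread between libraries, and precision from reads covers counting error only, as there were no molecular identifiers. The table held 1834 genes under 12 reads.

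The main test was limma (version 3.58.1, in R 4.3.3), applied to log2(CPM + 1) with its trend option, two-sided, and p-values were adjusted over all genes (Benjamini-Hochberg). edgeR's quasi-likelihood test (version 4.0.16) and DESeq2 (version 1.42.0) on the recovered reads were alternatives, with other scalings, pseudocounts (0.1 CPM), filters, the replicate block and left-out libraries. Sums by histone class, by kind of 3′ end and by list were described without a p. Sums of near-identical copies were tested with limma. The alternative fits of the summed H2A copies were chosen after the data were seen. Transcripts and gene positions were from GENCODE M21, promoters from RefSeq, and copies were found with blastn (version 2.17.0). Scripts were tested on simulated data.

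The histone genes and the other lists were chosen with earlier results of these data known. Values in every library were given for histone genes called by limma and for the 3 with the highest mean CPM of each class. From the other lists at most 4 called genes per direction with groups that do not overlap were named, with Slbp, Npat, Lsm10, Lsm11 and Pcna in any case. H2afx, H3f3a, Hist1h2ah, Hist1h2ak, Hist1h2al, Hist2h2ac, Supt16, Ssrp1 and Rmrp were named after their values were seen. So were the markers Cdh1, Krt8, Pecam1, Ptprc and Des.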

Additional observations from a re-analysis of the deposited data

How the results depend on the processing

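None of the histone genes was called higher under any setting. The count called lower, 1 of 32, was 2 with the filter on low genes (which tested 10 of them), 2 with edgeR, 1 with DESeq2 and 0 without the mean-variance trend, and 0 to 1 with libraries left out. DESeq2 gave no adjusted p for 26 of the 32 genes. All genes called numbered 3676, and 1440 without the trend, 2183 with DESeq2 and 1014 to 2813 with libraries left out, the lowest without replicate 3. For the other lists of the histone pathway and S phase, 41 calls became 25 without the trend and 19 to 37 with libraries left out. TMM scaling of the recovered reads gave the deposited values again.

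The log2 fold change was below 0 in 22 of the 32 histone genes, and in 24 with edgeR or DESeq2. With near-identical copies summed it was below 0 in 10 of 16 features. Among the genes named by the rule, direction changed with libraries left out for 5 that had not been called. The log2 fold change ran from -0.25 to 0.13 for Hist1h1c, -0.10 to 0.48 for Hist2h2be, -0.14 to 0.46 for Hist2h3c2, -0.24 to 0.058 for Lsm10 and -0.19 to 0.054 for Lsm11. That of the summed H2A copies ran from -0.57 to -0.47, and that of Aldoa from -2.998 to -2.90.

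Adding the replicate block gave 3170 calls, 3151 of them shared with the fit without it, and 1 histone gene was lower. Nfyb and E2f1 were no longer called (limma adjusted p = 0.057 and 0.058). Across 6845 genes, deviations correlated at 0.080, 0.078 and 0.279 between the siCtrl and siAldoa libraries that share number 1, 2 and 3. Pairs with different numbers gave a mean of -0.072. The deviations within a group cancel out, so this mean follows from the shared-number values and is no separate baseline. All 3 shared-number values were positive, that of replicate 3 the highest. The main fit nevertheless did not pair the samples, and whether the numbers pair them was not tested. The cause of these deviations was not tested. With 12 to 184 reads per gene, depth limits every value for a single histone gene.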
